A study of Mus musculus with 18 samples.

Results

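The Kit locus of mouse lung endothelial cells (ECs) was described here through its regions of open chromatin, as called by ATAC-seq, an assay in which a transposase cuts and tags accessible DNA. Kit regions were chosen by measured values. Peaks of all 18 lists that overlapped by at least 1 bp were merged, a merged region was kept where at least 2 lists held a peak, and it was assigned to Kit where the Kit transcription start site (TSS) was the nearest RefSeq TSS to its midpoint or where it lay within the gene body. The rule gave 20 Kit regions of 47338 consensus regions. They are numbered K1 to K20 along the chromosome. The nearest TSS is a position and does not show which gene a region acts on.

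Lung ECs were sorted by flow cytometry as CD45-, EpCAM-, GFP- and CD31+ cells from FVB mice that carry a Col1a1-GFP reporter, in which collagen-producing cells are green, so every group shares the reporter. The age was 2 months in Young and 18 months in Aged mice. Bleo mice received about 1 U/kg bleomycin, which injures the lung, through the trachea, and Sham mice received PBS, with ECs collected on day 30. Sham groups held 5 Young and 4 Aged mice, Bleo groups 4 Young and 5 Aged mice, with 1 peak list per mouse.

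Kit encodes the receptor tyrosine kinase for stem cell factor, the product of Kitl. Ligand binding pairs receptor molecules and starts signalling through PI3-kinase, SRC-family kinases and STAT5, which adaptor proteins relay and phosphatases and ubiquitin ligases end. In the lung, Kit marks general capillary (gCap) ECs, and it is also expressed by mast cells, melanocytes and blood progenitors. Kit transcription is known to depend on elements far from the promoter, and it lies between Pdgfra and Kdr, which encode other receptor tyrosine kinases.

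In mm10 the gene body spans chr5:75574987-75656722 on the plus strand (81.7 kb, 21 exons). Distances are given from the Kit TSS, negative upstream. The nearest Pdgfra TSS lies at −419 kb and the nearest Kdr TSS at 403 kb. Upstream of the gene lie 9 Kit regions (K1 to K9, from −197.3 to −83.9 kb), with K4 to K9 between −115.3 and −83.9 kb. At the TSS or within the gene lie 8 (K10 to K17), and downstream lie 3 (K18 to K20, up to 187.2 kb). The regions were 203 to 902 bp wide.

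Sequences are shown for the region at the TSS, the regions in which the main tests called a difference (K4 and K6) and K7, which is among the strongest distal regions present in every list. They come from the RefSeq GRCm38 assembly, which is mm10, plus strand, 5′ to 3′, over 200 bases centred on the strongest summit. For K10 only the 118 bases before the TSS are printed. Capitals mark matches to any of 7 motifs searched on both strands.
K10, chr5:75574869-75574986: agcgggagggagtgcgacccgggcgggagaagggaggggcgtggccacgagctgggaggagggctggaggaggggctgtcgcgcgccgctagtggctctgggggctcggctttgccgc
K6, chr5:75472614-75472813: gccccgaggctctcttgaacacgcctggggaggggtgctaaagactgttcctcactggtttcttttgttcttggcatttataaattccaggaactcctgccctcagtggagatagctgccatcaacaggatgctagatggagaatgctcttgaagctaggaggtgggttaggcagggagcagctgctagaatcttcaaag
K4, chr5:75459492-75459691: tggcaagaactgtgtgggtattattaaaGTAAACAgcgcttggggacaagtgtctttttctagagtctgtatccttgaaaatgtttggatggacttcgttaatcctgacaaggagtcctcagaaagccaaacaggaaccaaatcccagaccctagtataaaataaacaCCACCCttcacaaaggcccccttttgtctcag
K7, chr5:75478585-75478784: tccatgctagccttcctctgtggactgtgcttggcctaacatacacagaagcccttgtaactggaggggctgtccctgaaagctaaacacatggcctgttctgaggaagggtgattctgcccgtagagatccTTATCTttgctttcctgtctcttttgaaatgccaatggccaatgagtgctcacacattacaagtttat

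The K4 window holds a forkhead match (GTAAACA) and a KLF match (CCACCC). K7 holds a GATA match (AGATAA) on the minus strand. No searched motif was found in the K6 or K10 window. A match describes letters and is not a binding site.

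Over the 20 Kit windows, the ERG core (CAGGAAG) was found in 5, or 25%, against 19.9% of all consensus windows. The ERG matches lay in K3, K12 (which holds 2), K14, K17 and K20. GATA letters were found in 5 Kit windows (25% against 9.67% of all), in K7, K8, K13, K15 and K20. Forkhead letters were found in 4 Kit windows (20% against 4.45%), namely K1, K4, K12 and K15, and KLF letters in 8 (40% against 23.8%). AP-1 (TGANTCA) and SOX (ACAATGG) letters were each found in 2 Kit windows (10%), against 8.63% and 5.58% of all windows. RUNX letters (TGTGGT) were found in 1 (5% against 11.9%). All Kit regions but K10 lie outside promoters, which run here from 1000 bp before to 100 bp after a TSS. Of all windows outside promoters, 22.6% held ERG, 11.6% GATA and 5.20% forkhead letters. For KLF, AP-1, SOX and RUNX letters the shares outside promoters were 22.6%, 10.2%, 6.70% and 13.4%. The median GC content of the Kit windows was 49.5%, and that of all windows was 53%. K15 held GATA, forkhead and SOX letters within 46 bp of its summit. These counts are descriptions of 20 windows and were not tested.

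The lists differed in depth, which bears on every count of peaks. They held 21050 to 40883 nuclear peaks, and 43.0% to 80.4% of consensus regions had a peak in a given list. Aged Bleo 4 was the smallest list and Aged Bleo 2 the largest. Fragment coverage at each summit was solved from the fold enrichment and −log10 p that MACS2 gave, and the fewest fragments at any peak of a list were 7 to 10. By the lane code that each deposited list carries, all 5 Young Sham lists came from lane 8, with Young Bleo 4. Aged Sham 1 to 3 and Young Bleo 1 to 3 came from lane 7, and Aged Sham 4 and all Aged Bleo lists from lane 6. Group and lane therefore cannot be told apart in most comparisons with Young Sham, and Young Bleo 4 is the only list of another group within the Young Sham lane.

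Most endothelial and gCap promoters had a peak in most lists. Cdh5, Tie1, Kdr, Erg and Cldn5 had a promoter peak in all 18 lists, as did the gCap genes Plvap, Cd93, Ptprb and Kit. Of the other endothelial genes, Pecam1 had one in 17 lists, Tek in 15 and Emcn in 7, none of them Aged Sham. Of the other gCap genes, Aplnr had one in 13 lists (1 of 5 in Aged Bleo) and Gpihbp1 in 11. The aerocyte (the other capillary EC type) genes Tbx2, Prx, Ednrb, Apln and Car4 had one in 18, 17, 15, 13 and 2 lists. None of the leukocyte promoters of Ptprc, Cd3e, Lyz2, Itgam and Csf1r had a consensus region, and neither did Col1a1 or Epcam. Of 7 mast cell promoters, which matter because mast cells express Kit, only Hdc had a peak, in 5 of 18 lists, and Cpa3, Ms4a2, Fcer1a, Tpsb2, Cma1 and Mcpt4 had none; the summed percentile of the mast cell list was 0 in most lists, with a highest value of 8.05 in Young Sham, 2.38 in Young Bleo, 39.5 in Aged Sham and 37.3 in Aged Bleo. Among non-endothelial lists, Foxj1 (epithelial) and Pdgfra (fibroblast and mural) had a promoter peak in all 18 lists. The summed percentile of the 8 endothelial promoters ran from 404 to 467 in Young Sham, 377 to 437 in Young Bleo, 299 to 396 in Aged Sham and 231 to 458 in Aged Bleo, so Aged Sham lay wholly below Young Sham. That of the 6 gCap promoters, Kit included, ran from 283 to 343 in Young Sham, 276 to 324 in Young Bleo, 254 to 319 in Aged Sham and 177 to 320 in Aged Bleo. The part of both lists in the results on Kit was not tested. In bulk ECs, fewer cells with an open region and less opening per cell cannot be told apart.

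In 4 Kit regions every list had a peak: K6 (−102.3 kb), K7 (−96.2 kb), K10 at the TSS and K19 (164.5 kb, and 239 kb from the Kdr TSS). That is 20% of the Kit regions, against 36.8% of all consensus regions. Of the 20 Kit regions 1 lies in a promoter, against 21.3% of all consensus regions, and a share for regions outside promoters was not computed. K5 (−103.7 kb), K13 in intron 1 and K15 over exon 11 each had a peak in 17 lists, and in each case the list without one was Aged Bleo 4. The most variable were K3, K9 and K17, with a peak in 9, 10 and 7 lists. Only just within the rule were 3 regions with a peak in 2 lists. K2 and K20 had theirs in Aged Bleo 1 and 2, with percentiles of 17.3 and 19.9 for K2 and 27.1 and 37.2 for K20. K18 had its peaks in Young Bleo 2 and Aged Bleo 1, with percentiles of 7.82 and 7.42. Just outside the rule were 4 regions with a peak in 1 list. Those at −133.5 and −39 kb, in Young Sham 1, had percentiles of 24.4 and 13.6, and those at 29.4 and 78.5 kb, in Young Bleo 2, had 22.9 and 1.84.

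**Figure D1:**
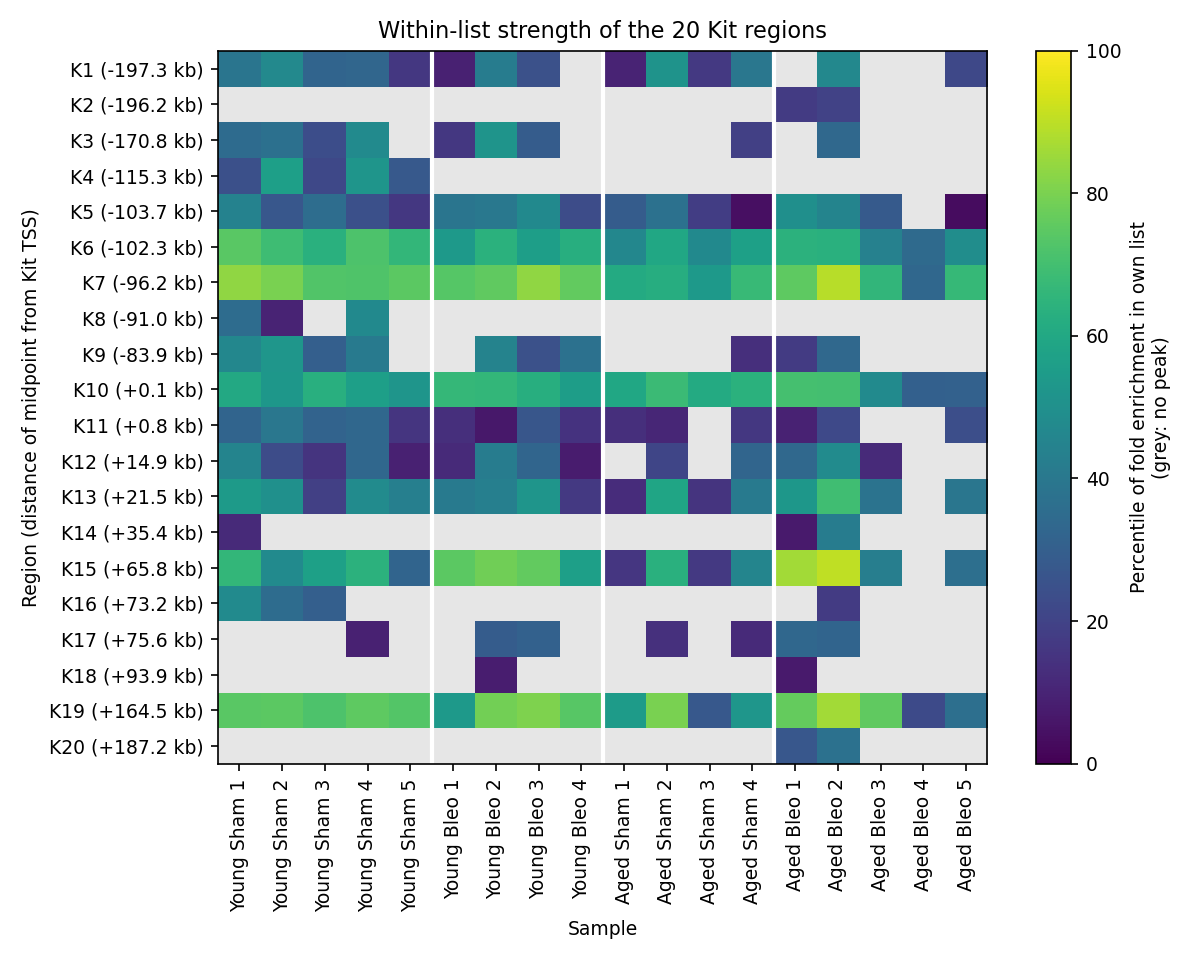
Percentile of fold enrichment of each Kit region (rows, in order along the chromosome) among all peaks of the same list, for the 18 samples (columns); grey cells have no peak. K4 is coloured in the 5 Young Sham columns only, and the Aged Bleo 4 column holds 4 coloured cells.

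Young Sham ECs had a peak in 16, 15, 14, 15 and 11 of the 20 Kit regions. Young Bleo ECs had a peak in 11, 14, 13 and 10, Aged Sham ECs in 9, 11, 8 and 13, and Aged Bleo ECs in 15, 17, 8, 4 and 9. The group means were 14.2 ± 1.92 (SD, n = 5), 12 ± 1.83 (n = 4), 10.2 ± 2.22 (n = 4) and 10.6 ± 5.32 (n = 5). The ranges overlapped between all groups, and Aged Bleo spanned both the lowest and the highest sample of the study.

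The share of Kit regions with a peak was set against the share of all consensus regions with a peak in the same list. Promoters make up 21.3% of all consensus regions and 1 of the 20 Kit regions, which the comparison does not adjust for. The difference was −0.938 ± 3.48 percentage points in Young Sham, −15.1 ± 3.97 in Young Bleo, −7.92 ± 5.45 in Aged Sham and −9.93 ± 11.7 in Aged Bleo (SD). This contrast rested in part on 4 regions with peaks in a single group, K4 and K8 in Young Sham and K2 and K20 in Aged Bleo. Over the 16 Kit regions and 44990 consensus regions with a peak in at least 2 groups, a choice made after seeing the data, the difference was 4.40 ± 4.61 points in Young Sham, −3.23 ± 6.03 in Young Bleo, 1.87 ± 7.66 in Aged Sham and −4.53 ± 12 in Aged Bleo, and the ranges of all groups overlapped. These 16 still include K16 and K14, which have a peak in 1 list once Young Sham or Aged Bleo, respectively, is set aside. The mean number of these 16 regions with a peak was 12.6 ± 1.52, 12 ± 1.83, 10.2 ± 2.22 and 9.8 ± 4.32. Over all 20 regions, by lane, it was −19.9 points in the single Young Bleo list of lane 8. In lane 7 it was −13.5 points on average in the 3 Young Bleo lists and −10.5 in the 3 Aged Sham lists. In lane 6 it was −0.142 in the single Aged Sham list and −9.93 in the 5 Aged Bleo lists, so the Aged Sham value differed between lanes.

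**Figure D2:**
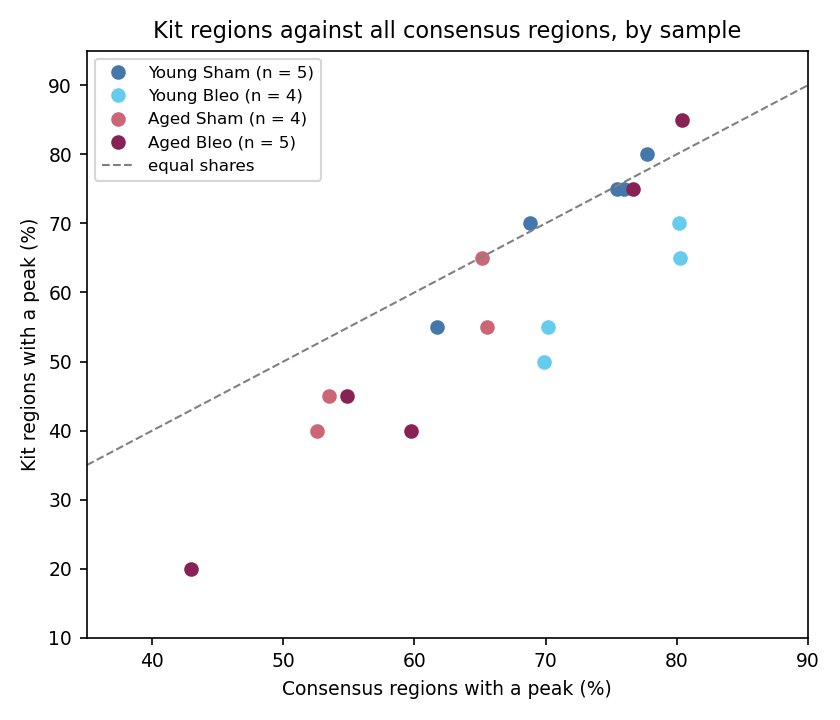
Share of the 20 Kit regions with a peak (y axis, %) against the share of all 47338 consensus regions with a peak (x axis, %), 1 point per sample, with a dashed line of equal shares. The 4 Young Bleo points all lie under the line (−15.1 points on average), and the Young Sham points lie nearer to it (−0.938 points on average), a gap that includes K4 and K8, which had peaks in Young Sham alone.

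By position, the ranges of the groups overlapped. Of the 9 upstream regions, 7.2 ± 1.30 had a peak in Young Sham, 5.25 ± 0.957 in Young Bleo, 4.5 ± 1 in Aged Sham and 4.2 ± 1.92 in Aged Bleo. Without K2, K4 and K8, which had peaks in 1 group alone, the 6 other upstream regions gave 5.6 ± 0.894, 5.25 ± 0.957, 4.5 ± 1 and 3.8 ± 1.48. Of the 8 regions at the TSS and in the gene, 6 ± 0.707, 5.5 ± 0.577, 4.75 ± 1.5 and 4.8 ± 2.77 had a peak. Of the 3 downstream regions, a mean of 1 (Young Sham) to 1.6 (Aged Bleo) had a peak.

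**Figure D3:**
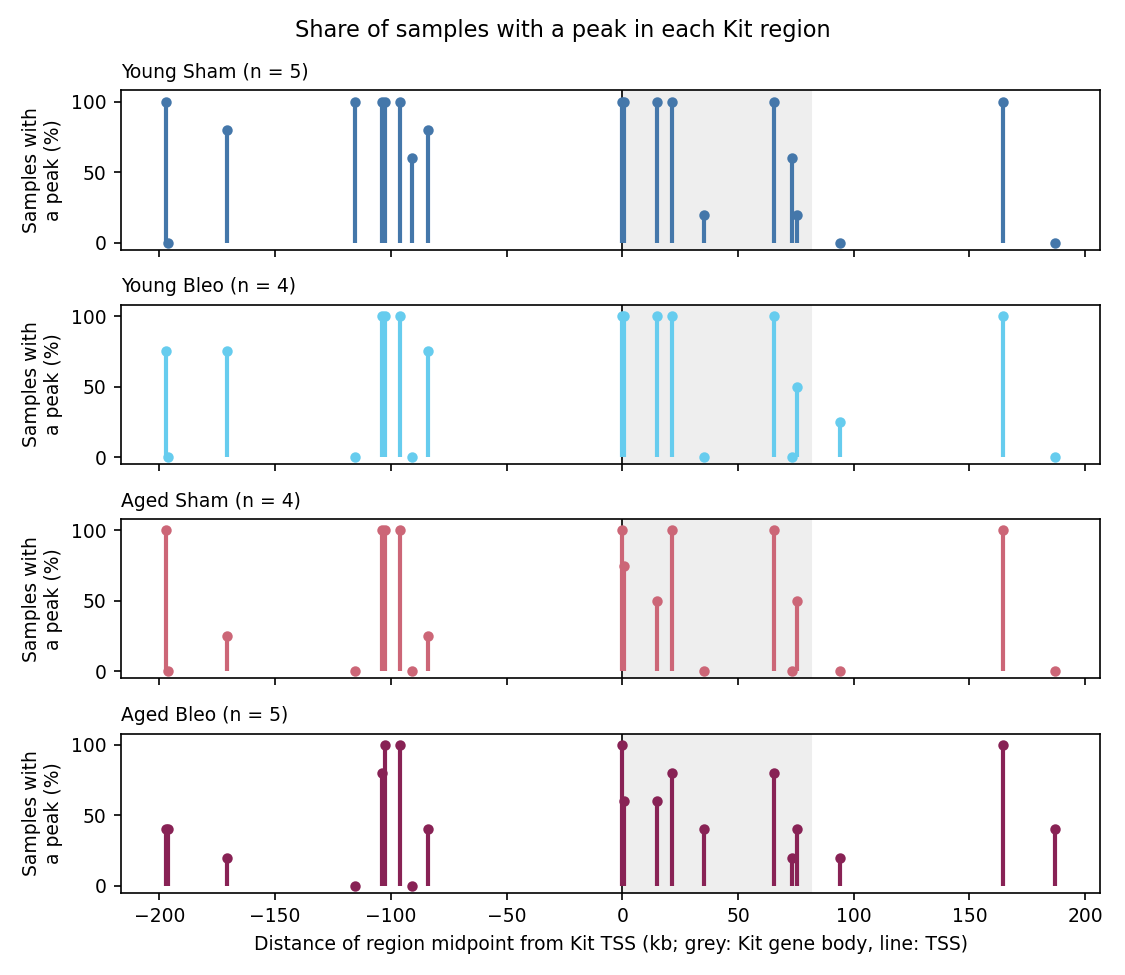
Share of samples in each group with a peak (y axis, %) in each Kit region, by distance of its midpoint from the Kit TSS (x axis, kb), with the gene body in grey. The region at −115.3 kb (K4) is at 100% in Young Sham and at 0% in the other groups.

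Each region was compared between groups with Fisher's exact test (two-sided) on the number of lists with and without a peak, over all consensus regions. A region was called at an unadjusted p of at most 0.05. With p-values adjusted over the 47338 regions (Benjamini-Hochberg), none passed 0.05 in any comparison (smallest adjusted p 0.162), so no presence call below holds after adjustment. Aged Sham against Young Sham asked what age does without injury. Of the 20 Kit regions 1 (K4) had a peak in fewer Aged Sham samples and 0 in more, where 4.9% of all regions were called as fewer and 0.264% as more. Young Bleo against Young Sham asked what injury does in young mice, and again K4 alone was called as fewer and none as more, against 1.96% and 3.98% of all regions. Aged Bleo against Young Sham gave the same pair of counts, with 3.01% and 0.201% of all regions called. Between Aged Bleo and Young Bleo no Kit region was called in either direction, against 2.44% and 0.123%. With both treatments pooled, 1 Kit region (K4) had a peak in fewer Aged samples and 0 in more, against 4.87% and 0.127%. A count of 1 in 20 Kit regions is 5%, which is near the share of all regions called as fewer in Aged Sham and in Aged against Young, and it carries no statement about the Kit regions as a group. The comparisons with Young Sham share its 5 lists.

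K4 (chr5:75459435-75459846, −115.3 kb, 412 bp) had a peak in all 5 Young Sham lists and in none of the other 13. Its summits in Young Sham held 13, 28, 15, 24 and 15 fragments, and its percentiles were 24.4, 56.3, 21.8, 52.1 and 27.9, so it was a weak to middling peak in the lists that held it. K4 met the rule of a peak in at least 2 lists through Young Sham alone, so its test uses the values that let it in and describes this pattern without supporting it independently. Fisher's exact test gave p = 0.00794 against Aged Sham (n = 4), Young Bleo (n = 4) and Aged Bleo (n = 5) alike, the smallest p these group sizes allow, with adjusted p of 0.786, 0.535 and 1. For Aged against Young, with 0 of 9 and 5 of 9 lists, the exact p was 0.0294 and the adjusted p 0.793. The same pattern of presence was found in 39 consensus regions, 0.0824% of all, nearest to 39 genes.

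The call depended on how peaks were taken. Young Bleo 4, from the Young Sham lane, had no K4 peak. With the same number of peaks taken from each list, K4 had a peak in 2 of 5 Young Sham lists (a difference of −40 points for each other group, Fisher's exact p = 0.444). With peaks required to cover at least 50% of the region, the difference was −60 points (exact p = 0.167). A missing peak is a level under the caller's threshold and does not show closed chromatin.

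K8 (−91 kb) and K16 (intron 15) also had most of their peaks in Young Sham, with 3 of 5 lists each. Neither passed the test in any comparison (exact p 0.167 or more). K3, at −170.8 kb, had a peak in 4 of 5 Young Sham and 3 of 4 Young Bleo lists, and in 1 of 4 Aged Sham and 1 of 5 Aged Bleo lists (Fisher's exact p = 0.0567 for Aged against Young). Within lane 7 it had a peak in all 3 Young Bleo lists and in none of the 3 Aged Sham lists. Of all consensus regions, 76.9% had a peak on average in those Young Bleo lists and 57.2% in those Aged Sham lists. The share of all regions with the same split as K3 was not counted, and the part of list depth in it was not tested. K9, at −83.9 kb, followed a like order with 4, 3, 1 and 2 lists (exact p = 0.153). K12, in intron 1, had a peak in all 9 Young and 5 of 9 Aged lists (exact p = 0.0824).

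Strength was read where all 18 lists had a peak, in 17432 regions including 4 of the Kit regions. Within-list strength is the percentile of a peak's fold enrichment among the nuclear peaks of its own list. Groups were compared with limma (moderated test, Benjamini-Hochberg adjustment over the 17432 regions). Against Young Sham, the median difference over these regions was −3.62 points in Aged Sham, −3.25 in Aged Bleo and 0.411 in Young Bleo.

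K6 (chr5:75472338-75473050, −102.3 kb) had percentiles of 74.4, 69.1, 63.4, 72.0 and 66.2 in Young Sham. They were 53.9, 64.0, 56.0 and 62.7 in Young Bleo, 46.2, 59.7, 47.3 and 57.0 in Aged Sham, and 64.3, 63.5, 43.9, 34.6 and 49.0 in Aged Bleo. Aged Sham lay wholly below Young Sham, and the other groups overlapped Young Sham slightly. The share of all regions in which Aged Sham lies wholly below Young Sham was not counted. K6 fell by 18.0 ± 4.99 points (SE) in Aged Bleo against Young Sham (limma adjusted p = 0.0399). The call was lost without any 1 of Young Sham 1, 2, 3 or 4, Young Bleo 3, or Aged Bleo 3, 4 or 5, where the adjusted p was 0.0512 to 0.0915. The difference was −16.5 ± 5.30 points in Aged Sham (limma adjusted p = 0.117), −9.87 ± 5.30 in Young Bleo (0.561) and −12.3 ± 3.74 for Aged against Young (0.0551).

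On percentiles of fold enrichment, K6 was the only Kit region called for strength. Of the 4 Kit regions, 1 was lower in Aged Bleo than in Young Sham and 0 were higher, against 6.4% and 1.33% of all regions tested. None was called in Aged Sham against Young Sham (background 1.16% lower, 0.0516% higher), Young Bleo against Young Sham (0.31% and 0.138%), Aged Bleo against Young Bleo (0.0516% and 0.0115%) or Aged against Young (7.44% and 0.138%). At an unadjusted limma p of at most 0.05, K6 was lower in Aged Sham against Young Sham, where 3350 of 17432 regions passed that threshold in either direction, and K6 and K7 were lower in Aged against Young, where 5208 did.

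Fragments at the summit, scaled to the depth of each list by the median ratio over the 17432 regions, separated the groups further at K6. Young Sham summits held 88.7, 91.8, 72.8, 86.8 and 72.5 scaled fragments. Those of the other groups held 41.6, 52.2, 36.6 and 47.1 (Young Bleo), 36.4, 44.3, 32.4 and 46.7 (Aged Sham), and 43.2, 53.3, 30.7, 33.9 and 41.8 (Aged Bleo). Every Young Sham list was above every other list, which held for 1.38% of all regions tested, and the ratio of the Young Sham mean to the mean of the other 13 lists was 1.99, a ratio that 32 of 17432 regions (0.184%) reached. Young Bleo 4, in the Young Sham lane, held 47.1.

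On the log2 scale of these fragments, K6 was lower in Aged Sham than in Young Sham, with a difference of −1.05 ± 0.16 (SE, limma adjusted p = 0.00131). The log2 difference was −0.90 ± 0.16 in Young Bleo (limma adjusted p = 0.00163) and −1.04 ± 0.15 in Aged Bleo (6.35e-05). Between Aged Bleo and Young Bleo it was −0.14 ± 0.16 (adjusted p = 0.670). The 3 other groups were thus each below Young Sham. Aged Sham and Young Bleo were not tested against each other, and within lane 7 their values overlapped. Counts of Kit regions called lower on this scale were 2 of 4 (K6 and K7) in Aged Sham against a background of 3.94%, 1 (K6) in Young Bleo against 7.25%, and 3 (K6, K7 and K10) in Aged Bleo against 15.2%. None was called between Aged Bleo and Young Bleo (0.511%), and 2 (K6 and K7) in Aged against Young (5.21%). The test of whether the Bleo difference itself depended on age gave a log2 interaction of 0.91 ± 0.22 at K6 (limma adjusted p = 0.104).

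The fold enrichment divides summit fragments by a local background that MACS2 takes from the sequence around a peak. That background also differed at Kit. Scaled to depth, it was 4.51 to 6.14 fragments around K6 in Young Sham and 2.15 to 3.57 in the other 13 lists. Around K7 it was 2.23 to 3.31 against 1.33 to 1.99, and around K10 3.84 to 5.01 against 2.09 to 3.65. Young Sham was above every other list at these 3 regions, as it was at 1.36% of all regions tested, and at K19 the ranges overlapped (1.48 to 1.90 against 1.28 to 1.99). The ratio of the Young Sham mean to that of the other lists was 1.79 at K6, 1.66 at K7, 1.49 at K10 and 1.14 at K19, where the median over all regions was 1.02. The part of this background in the percentile differences was not tested.

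**Figure D4:**
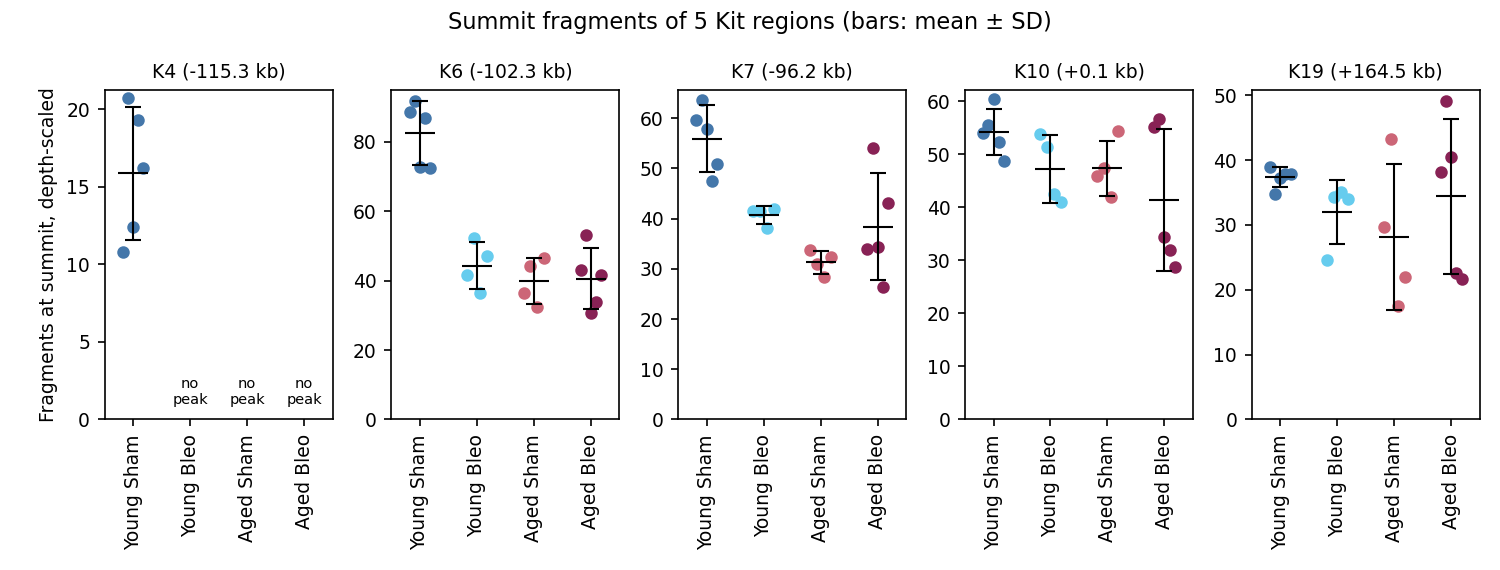
Depth-scaled fragments at the summit (y axis) of K4, K6, K7, K10 and K19 by group, 1 point per sample that had a peak, with the mean and SD as black bars. At K6 the Young Sham points, from 72.5 to 91.8, lie above all points of the other groups, which reach 53.3.

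K7 (chr5:75478446-75479152, −96.2 kb) had a median percentile of 73.4 over the 18 lists, close to that of K19, and a higher mean percentile than K19 in each of the 4 groups. Its scaled fragments were 55.9 ± 6.63 (SD, n = 5) in Young Sham, 40.8 ± 1.82 (n = 4) in Young Bleo, 31.3 ± 2.29 (n = 4) in Aged Sham and 38.4 ± 10.6 (n = 5) in Aged Bleo. The 3 Aged Sham lists of lane 7 held 28.4 to 33.7 and the 3 Young Bleo lists of the same lane 38.0 to 41.6. How many of all regions separate these lists in the same way was not counted, so the split describes K7 alone. The log2 difference was −0.83 ± 0.15 for Aged Sham against Young Sham (limma adjusted p = 0.00417), −0.58 ± 0.14 for Aged Bleo (0.00578) and −0.45 ± 0.15 for Young Bleo (0.0542). In percentiles, K7 was 61.1 ± 5.56 in Aged Sham and 76.7 ± 4.74 in Young Sham, with adjusted p of 0.272 by limma.

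K10 (chr5:75574698-75575412), at the TSS, held 54.2 ± 4.29 scaled fragments in Young Sham, 47.2 ± 6.39 in Young Bleo, 47.4 ± 5.17 in Aged Sham and 41.4 ± 13.4 in Aged Bleo. Aged Bleo 1 and 2 were at 55.1 and 56.6, within the Young Sham range of 48.7 to 60.4, and Aged Bleo 3, 4 and 5 were at 34.4, 32.0 and 28.8. On the percentile scale the order of Young Sham (57.0 ± 4.75) and Aged Sham (63.2 ± 3.71) was the other way round from the fragments, and the difference of 6.21 ± 7.21 points missed the threshold (limma adjusted p = 0.667). The log2 fragment difference from Young Sham was −0.44 ± 0.16 in Aged Bleo (limma adjusted p = 0.0465), −0.20 ± 0.17 in Aged Sham (0.512) and −0.20 ± 0.17 in Young Bleo (0.450).

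K19, in the intergenic sequence towards Kdr, had a median percentile of 74.2 over the 18 lists. Its group means were 74.0 in Young Sham, 71.9 in Young Bleo, 53.7 in Aged Sham and 59.4 in Aged Bleo. Young Sham lists lay close together, at 74.4, 74.7, 72.2, 75.3 and 73.3. Percentiles in the other groups were spread from 22.5 to 86.1, with 54.3, 78.5, 80.7 and 74.0 in Young Bleo, 54.9, 79.8, 27.5 and 52.5 in Aged Sham, and 76.2, 86.1, 75.5, 22.5 and 36.5 in Aged Bleo. No comparison passed the test (limma adjusted p 0.201 or more).

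Values in lists with a peak also differed at regions that some lists lacked. K5, next to K6, held 32.5 to 47.3 scaled fragments in Young Sham, 24.4 to 33.4 in Young Bleo, 19 to 27.8 in Aged Sham and 20.2 to 36.6 in the 4 Aged Bleo lists with a peak. The K5 values of Young Sham overlapped those of Young Bleo and Aged Bleo. K11, in intron 1 just past the TSS, held 27.1 to 43.7 in Young Sham, and 16.5 to 25.9 in the 10 lists of the other groups that had a peak. Young Sham was above every other list at 1.38% of the 17432 regions with a peak in all lists. K11 is not among those regions, and the share of regions like it that separate in this way was not counted. K13 in intron 1 held 18.2 to 31.3 in Young Sham, within the spread of the other groups (12.2 to 45.8). These values come only from lists with a peak, and lists without one give none, so they were not tested.

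K15, over exon 11, had its highest values outside Young Sham. Its scaled fragments were 24.1, 17.8, 23.2, 24.1 and 17.3 in Young Sham and 38.8, 46.5, 32.8 and 23.5 in Young Bleo. In Aged Bleo, lists 1 and 2 held 57.6 and 73.2, lists 3 and 5 held 20.9 and 21.6, and list 4 had no peak. Aged Sham held 14.8, 28.9, 14.9 and 19. The 3 Young Bleo lists with the higher values came from lane 7 and the fourth from lane 8. With absent peaks set to 0, the percentile of K15 differed by 18.0 ± 15.6 points between Young Bleo and Young Sham (limma adjusted p = 0.632).

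Kit was compared with its neighbours and with 3 other endothelial receptor or surface genes. Kdr, which encodes the main VEGF receptor, had 19 regions, of which 69.5 ± 8.65% had a peak in Young Sham, 59.2 ± 8.99% in Young Bleo, 53.9 ± 5.04% in Aged Sham and 57.9 ± 15.3% in Aged Bleo. Kit shares were 71 ± 9.62%, 60 ± 9.13%, 51.2 ± 11.1% and 53 ± 26.6% in the same order. Tek, the angiopoietin receptor, had 12 regions and shares of 83.3 ± 10.2%, 89.6 ± 10.5%, 47.9 ± 4.17% and 55 ± 29.2%. For Cd93, a capillary surface receptor, the 13 regions gave 66.2 ± 8.77%, 75 ± 17.1%, 50 ± 18.3% and 53.8 ± 26.1%. In Young Bleo the mean share was thus below that of Young Sham for Kit and Kdr and above it for Tek and Cd93, with overlapping ranges for each gene, and the Kit share includes the regions that met the rule through 1 group. Plvap, a gCap gene, had 5 regions and shares of 64 ± 8.94%, 65 ± 10%, 45 ± 19.1% and 60 ± 28.3%. Pdgfra, the neighbour on the other side, had 3 regions and shares of 66.7 ± 33.3%, 58.3 ± 16.7%, 50 ± 19.2% and 40 ± 14.9%. In Aged Sham against Young Sham, 2 Kdr, 3 Tek and 1 Cd93 regions were called as fewer by Fisher's exact test, against 4.9% of all regions. In Young Bleo against Young Sham, 2 Kdr regions were called as fewer (1.96% of all regions), and 1 Tek and 1 Cd93 region as more (3.98%). Called as fewer in Aged Bleo against Young Sham were 1 Kdr, 2 Tek and 1 Cd93 regions (3.01%). Against Young Bleo, Aged Bleo had 1 Tek, 1 Cd93 and 1 Pdgfra region called as fewer (2.44%). For Aged against Young they were 1 Kdr, 3 Tek, 2 Cd93 and 1 Plvap regions (4.87%).

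**Figure D5:**
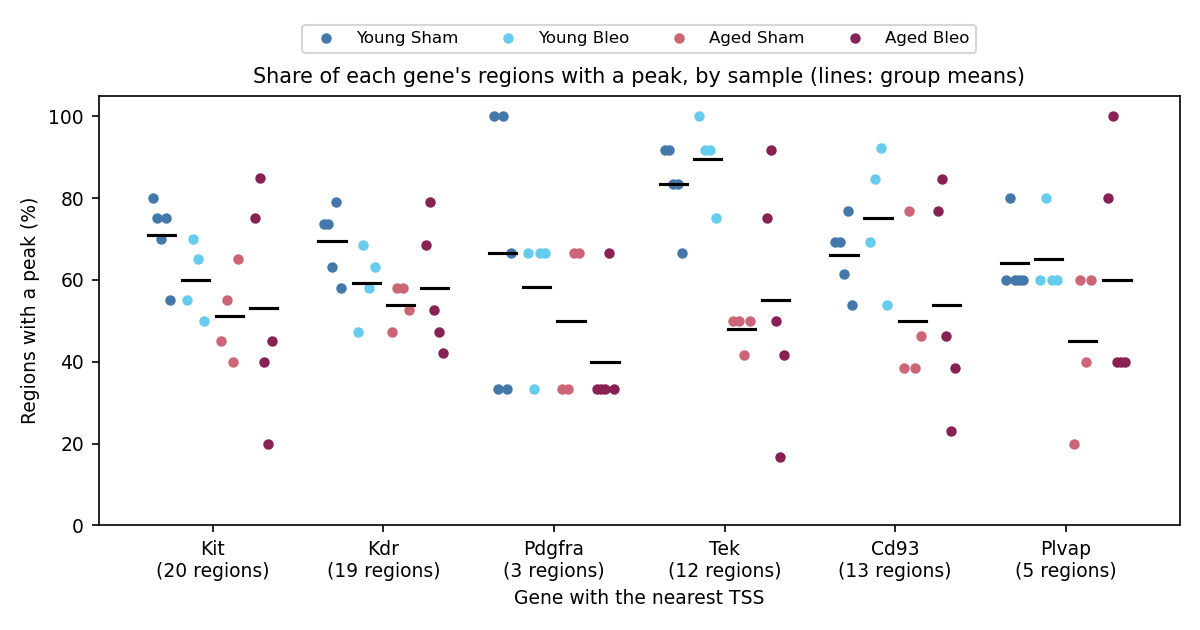
Share of the regions nearest to each gene that had a peak (y axis, %), 1 point per sample and group means as black lines, for Kit, Kdr, Pdgfra, Tek, Cd93 and Plvap. All 4 Aged Sham points for Tek, from 41.7% to 50%, lie below the lowest Young Sham point at 66.7%.

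Genes whose share of regions with a peak most resembled that of Kit over the 18 samples were Fam53b (Pearson r = 0.97), Ppp1r16b (0.96), Tmx1 (0.94), Epas1 (0.93), which encodes a hypoxia-inducible factor, and Bcor (0.93), among 528 genes with at least 8 variable regions. The share over all regions gave r = 0.91 with Kit and the median gene 0.78, and the part of list depth in these values was not tested. With the same number of peaks per list, the share over all regions gave r = 0.56 with Kit and the median gene 0.22, and the highest values among 57 genes were 9430078K24Rik (0.67), Gask1b (0.61), Tspan18 (0.61), Epas1 (0.59) and Fam53b (0.58).

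The Kit signalling pathway was followed over 29 genes, of which all but Ptpn6 had a consensus region, 157 regions in total. Fisher's exact test called 8 of them as fewer in Aged Sham against Young Sham (5.10%), 2 in Young Bleo against Young Sham (1.27%), 8 in Aged Bleo against Young Sham (5.10%), 5 in Aged Bleo against Young Bleo (3.18%) and 11 in Aged against Young (7.01%). Called as more were 6 in Young Bleo against Young Sham (3.82%), 1 each at Kitl, Sos1, Gab2, Fyn, Socs6 and Mitf, and 0 in the other comparisons. Of all consensus regions, 4.9%, 1.96%, 3.01%, 2.44% and 4.87% were called as fewer in the same order, and 3.98% as more in Young Bleo.

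The ligand gene Kitl had 10 regions, of which 1 was called as more in Young Bleo against Young Sham and none as fewer, with mean shares of 54%, 60%, 40% and 42% in the order of groups used above. Adam17, whose product sheds Kit from the cell surface, had 1 region, open in every list. Among signal relays, Pik3r1 (a PI3-kinase regulatory subunit) had 2 of 16 regions called as fewer than in Young Sham both in Young Bleo and with age and injury (Aged Bleo), and Lyn (a SRC-family kinase) 1 of 2 in Aged Sham and in Aged Bleo. The 8 regions called as fewer in Aged Sham against Young Sham lay 1 each at Gab1, Gab2, Pik3r1, Lyn, Inpp5d, Socs1, Tal1 and Fli1. Of all regions, 4.9% were called as fewer in that comparison. Of the inhibitors, Inpp5d, which encodes the phosphatase SHIP1, had 2 of 8 called as fewer in Aged Bleo against Young Sham (3.01% of all regions). It also had 1 in Aged Bleo against Young Bleo (2.44%) and 2 in Aged against Young (4.87%). Cbl, which encodes a ubiquitin ligase, had its 1 region open in every list. Of the transcription factors tied to Kit, Tal1 and Fli1 each had 1 region called as fewer in Aged Sham against Young Sham, of 7 and 8. Erg had none called in any comparison among 11 regions, with mean shares of 65.5%, 65.9%, 63.6% and 58.2%, and Gata2 had none among 8, with mean shares of 100%, 96.9%, 93.8% and 87.5%.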

How the data were processed

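ATAC-seq was run on lung ECs of 18 mice. Per the labels and the study's methods, the authors mapped reads to mm10 with BWA, removed duplicates, called peaks with MACS2 for each sample separately at a false discovery rate of 1%, and deposited 1 list per mouse. In each deposited list the authors give a fold enrichment (a ratio), a −log10 p and −log10 q value, a score and a summit offset for each peak. Only nuclear peaks were used (593980, with 19 mitochondrial peaks left out).

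Peaks were merged into consensus regions and assigned to the nearest RefSeq TSS of GRCm38 (45756 transcripts). Summit fragments and local background were solved from fold enrichment and −log10 p. In every list at least 99.9865% of solutions up to a −log10 p of 250 lay within 0.05 of a whole number. Presence was compared with Fisher's exact test and strength with limma 3.58.1 in R 4.3.3, both tested on simulated data. Fixed for naming were the region at the TSS, the 3 strongest distal regions with a peak in all 18 lists, and every called region. The members and lists were chosen with earlier results of these data known. The authors' read-level comparison was not repeated, since reads were not used here. The number of lists and their depth, 21050 to 40883 peaks, limit the precision. The sequence of 1 region and 1 marker promoter are not reported here.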

Additional observations from a re-analysis of the deposited data

Results flagged for a closer look

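Among 40 groups of values checked for a sample far from the others, 2 held one, where chance gives about 1 in 20. At K7, Young Bleo 3 held 38.0 scaled summit fragments, where the next lowest Young Bleo list held 41.6. At K19, Young Bleo 1 held 24.6, where the next lowest held 34.0.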

How the results depend on the processing

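Of 629 values computed under alternatives, 547 were rated the same, 38 weaker, 42 stronger, 2 moved and 0 reversed. A count of called Kit regions was rated the same if equal or of like size, whichever regions were called. Counts that stayed at 0 are among these. A difference in mean number was rated the same if it shifted by less than the SD within groups. Only the K4 and K6 values were rated by direction and side of the threshold. With 500 bp windows on summits, Kit regions with a peak in fewer samples were 2 in Aged Sham, 3 in Aged Bleo and 3 in Aged against Young, and 1 in Aged Bleo against Young Bleo, where 2342, 1445, 2319 and 1187 of all 48619 windows were. With peaks covering at least 50% of a region they were 3 in Aged Bleo against Young Sham and 2 in Aged against Young (2744 and 3925 of all 47338 regions), and with the same number of peaks per list both were 0 (548 and 281 of 27849). In those 2 settings K4 was not called in any comparison. With only regions that had a peak in at least 2 groups, chosen after seeing the data, K4 dropped out and 0 Kit regions were called as fewer in any comparison. The mean number of Kit regions differed between Aged Sham and Young Sham by −3.95, by −1.8 with the same number of peaks, and by −6.3 with 50% cover. For strength, log2 summit fragments called 2 Kit regions for Aged Sham, 1 for Young Bleo and 3 for Aged Bleo, each against Young Sham, and 2 for Aged against Young. Percentiles of −log10 p called 1 in Aged Sham and 2 in Aged against Young as lower, as they did 961 and 4019 of 17432 regions. All consensus regions with 0 for no peak called 1, 1, 2 and 1 in those 4 comparisons, as they did 1241, 830, 2607 and 3342 of 47338 regions. K4, which entered through Young Sham alone, is 1 of those calls in each. The cause of these differences was not tested.

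Leaving out 1 sample gave 1 to 3 Kit regions with fewer peaks in Aged Bleo against Young Sham (above 1 without Young Sham 3 or 5, Aged Sham 4, or Aged Bleo 2 or 5) and 1 to 3 in Aged against Young (above 1 without Young Sham 5, Young Bleo 1 or 4, Aged Sham 2 or 4, or Aged Bleo 1, 2 or 3). Where they were above 1, 1428 to 2667 and 2960 to 3820 of all regions were called, respectively. For strength it gave 0 to 1 in Aged Sham (1 without Aged Bleo 4), 0 to 1 in Aged Bleo against Young Sham, and 0 to 2 in Aged against Young (1 or 2 without Aged Sham 4, or Aged Bleo 1 or 2). The calls over all 17432 regions moved too: lower in Aged Sham were 202, and 875 without Aged Bleo 4, and lower in Aged against Young were 1297, and 1857, 2218 and 2662 without Aged Sham 4, Aged Bleo 1 and Aged Bleo 2. Other omissions lowered these counts, to 24 in Aged Sham without Young Sham 2 and to 323 in Aged against Young without Young Bleo 3. Lower in Aged Bleo against Young Sham were 1115, with 454 without Young Sham 2 and 1951 without Aged Bleo 2.

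The labels number the samples and state no pairing. Between same-numbered samples, correlations of deviations from group means ran from −0.133 to 0.251. They were above 0.1 in 3 of 5 pairs of Aged Bleo with Young Sham and in 2 of 4 of Aged Bleo with Young Bleo. In Aged Sham and in Young Bleo, each against Young Sham, 0 of 4 pairs were. Medians between different numbers ran from −0.0599 to 0.0329. Whether the numbers mark a shared origin was not tested. With the replicate block, the exact McNemar test called 0 Kit regions as fewer in the 4 comparisons that called K4 without it (exact p for K4 0.0625 to 0.125, the smallest that its 4 or 5 pairs that differ allow), and limma with the replicate block called 1 in Aged Bleo against Young Sham, as before.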
